A study of Mus musculus with 21 samples.

Results

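The 9 genes described here, *Gata6*, *Alox15*, *Prg4*, *Saa3*, *Vsig4*, *Fcna*, *Fn1*, *Icam2* and *Selp*, are known from the large macrophages of the serous cavities, and they were followed across 3 populations of mouse kidney macrophages. They were selected by symbol from 34236 gene names, for their known expression in large peritoneal macrophages and with earlier results of these libraries in view, and all 9 were found. The 21 libraries came from flow-sorted F4/80+CD64+ cells of male C57BL/6J mice aged 24 weeks, either after sham surgery (Sham) or from the stenotic kidney after renal artery stenosis (RAS), in which a cuff narrows the artery of the kidney. No genotype other than C57BL/6J and no other agent is given for any group. Per the study's methods, the sort took CD45+ cells and excluded those with lineage markers of T, B and NK cells, erythrocytes and granulocytes. CD11chiMϕ (3 Sham and 4 RAS libraries) and CD11cloMϕ (3 Sham and 4 RAS) are labelled as monocyte-derived, and kidney-resident macrophages (KRM, 4 Sham and 3 RAS) as resident. The labels do not say how many mice gave each library, and they give 5 h as the flow sort time, so the levels are those of cells taken through hours of digestion and sorting.

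Large peritoneal macrophages are the long-lived resident macrophages of the peritoneal and pleural cavities. They depend on the transcription factor GATA6, which is switched on by retinoic acid made by mesothelial and other stromal cells of the cavity, and they carry ICAM2 (CD102) on their surface. Outside the cavities they can enter the surface of injured abdominal organs. Small peritoneal macrophages, the other cavity population, arise from monocytes and express MHC class II, CCR2 and IRF4.

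The members have different roles. *Gata6* encodes the transcription factor. *Alox15*, which encodes 12/15-lipoxygenase, *Prg4*, which encodes the lubricating glycoprotein lubricin, *Saa3*, an acute-phase serum amyloid A protein, and *Fn1*, fibronectin, encode an enzyme and secreted proteins. *Vsig4* encodes the complement receptor CRIg, which takes up C3-coated particles, and *Fcna* encodes ficolin A, a soluble lectin of the complement pathway. *Icam2* and *Selp* encode adhesion molecules; P-selectin, the product of *Selp*, is best known from platelets and endothelium.

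The RefSeq promoter table of GRCm38.p6 held 4 of the 9 members, and bases 200 to 61 before their start sites are shown because GATA6 and the retinoid receptors are the known regulators of these genes in the cavity. Windows of 250 bases before to 50 after the start were searched on both strands for the GATA motif (AGATAA or TGATAA) and the retinoid receptor half-site (AGGTCA). Capitals mark a match, and all 4 sequences are written 5′ to 3′ on the strand of the gene.
Saa3 (chr7:46715737-46715876, minus strand): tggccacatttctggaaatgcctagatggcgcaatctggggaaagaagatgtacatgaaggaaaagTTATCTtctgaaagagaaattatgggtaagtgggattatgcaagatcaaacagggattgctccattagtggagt
Selp (chr1:164115064-164115203, plus strand): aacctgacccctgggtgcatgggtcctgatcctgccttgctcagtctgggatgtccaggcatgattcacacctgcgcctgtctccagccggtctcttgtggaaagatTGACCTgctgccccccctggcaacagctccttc
Fcna (chr2:25628035-25628174, minus strand): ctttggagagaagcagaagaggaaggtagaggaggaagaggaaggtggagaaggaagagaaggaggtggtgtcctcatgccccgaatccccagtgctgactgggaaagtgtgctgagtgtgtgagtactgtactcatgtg
Vsig4 (chrX:96293499-96293638, minus strand): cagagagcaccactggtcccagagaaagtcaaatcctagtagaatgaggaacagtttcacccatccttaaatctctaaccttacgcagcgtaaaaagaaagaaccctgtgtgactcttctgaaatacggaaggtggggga
The *Saa3* window held AGATAA on the antisense strand, from base -134, and the *Selp* window AGGTCA on the antisense strand, from base -93. Neither was found in the *Fcna* or *Vsig4* window. Of 32851 promoter windows, 18.6% held a GATA motif and 16.3% the half-site, so a match in 1 of 4 windows is a description of these letters only.

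In the GENCODE annotation of GRCm38, each member was a protein-coding gene: *Gata6* (chromosome 18, 11052064 to 11085635, plus strand), *Alox15* (chromosome 11, 70344152 to 70352031, minus), *Prg4* (chromosome 1, 150449412 to 150466165, minus), *Saa3* (chromosome 7, 46711998 to 46715700, minus), *Vsig4* (chromosome X, 96247203 to 96293438, minus), *Fcna* (chromosome 2, 25624666 to 25628030, minus), *Fn1* (chromosome 1, 71585520 to 71653200, minus), *Icam2* (chromosome 11, 106377656 to 106388075, minus) and *Selp* (chromosome 1, 164115264 to 164150026, plus). *Gata6*, *Prg4*, *Fcna*, *Fn1* and *Selp* overlap a gene on the other strand, and the counting was not stated to use strand, so reads of those pairs cannot be told apart. Of the 50-base words in its exons, *Saa3* shared 3.57% and *Fn1* 0.59% with other genes, and the other members shared none.

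The libraries held between 6891142 and 18592381 estimated counts, with 14504 genes passing the count filter over the 6 groups, and levels are given as CPM, the count scaled to the library total after TMM normalisation. The defining genes of the sort were present: *Adgre1*, which encodes F4/80, lay between 119 and 1846 CPM, its lowest values being the 196, 128 and 119 CPM of CD11chiMϕ RAS libraries 2 to 4 (762 in library 1 and at least 319 in CD11chiMϕ Sham), and *Itgax*, which encodes CD11c, between 116 and 925 CPM in CD11chiMϕ, 8.44 and 58.4 in CD11cloMϕ and 144 and 431 in KRM. Several libraries stood apart. Kidney tubule markers summed to 8476 CPM in CD11chiMϕ Sham library 3, to 2363 in CD11cloMϕ Sham library 3, to 1265 in KRM Sham library 3 and to 4730 and 3656 CPM in KRM RAS libraries 2 and 3, which also held the highest sums of mesothelial and epithelial markers (856 and 616 CPM; at most 153 in any other library). CD11chiMϕ RAS libraries 3 and 4 resembled each other more than any other pair of their group (r = 0.974 over genes, at most 0.920 in the other pairs), as did KRM RAS libraries 2 and 3 (0.980, with 0.800 and 0.827 for the pairs with library 1). The former held the highest sums of dendritic cell markers, up to 5489 CPM. Since these are bulk samples, fewer cells of a kind and less RNA per cell cannot be told apart. The study describes its groups by mice and independent experiments, but the labels do not tie a library to a mouse, so p-values measure the spread between these libraries, which may be technical.

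*Gata6*, the factor that defines the cavity macrophage, was at trace level in all 3 populations. CD11chiMϕ held 0, 1.59 and 1.26 CPM in Sham and 0.375, 3.65, 0.118 and 0.364 CPM in RAS. CD11cloMϕ held 1.14, 2.78 and 0.111 CPM in Sham and 1.96, 1.31, 1.58 and 1.09 CPM in RAS. These values rest on 0 to 24 counts a library, so the groups overlapped throughout and no order between CD11chiMϕ and CD11cloMϕ can be read. KRM held 0, 0, 0.0499 and 0 CPM in Sham, a single count in 4 libraries, and 0, 0.956 and 1.47 CPM in RAS. A count of 0 allows up to 0.361 CPM in KRM Sham library 1 and 0.295 CPM in KRM RAS library 1, taken as 3 counts and for counting error only. The 11 and 16 counts of KRM RAS libraries 2 and 3 came from the libraries with the high mesothelial and epithelial marker sums. In that list, *Wt1* and *Msln*, chosen as mesothelial genes, were at 2.96 and 3.67 CPM and at 1.56 and 2.47 CPM there. Most of the sum was *Krt8* (565 and 410 CPM) and *Krt18* (238 and 159 CPM), keratins that tubule epithelium also expresses. The part of these cells in the *Gata6* counts was not tested.

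*Alox15* and *Prg4* were highest in CD11cloMϕ, at levels far above those of *Gata6*. *Alox15* was at 701, 973 and 337 CPM in CD11cloMϕ Sham, at 56.6, 108 and 111 CPM in CD11chiMϕ Sham, and at 0.962, 0.952, 2.34 and 1.88 CPM in KRM Sham. *Prg4* followed the same order, with 125, 141 and 115 CPM in CD11cloMϕ Sham, 24.0, 66.0 and 59.0 in CD11chiMϕ Sham and 0.212 to 0.836 CPM in KRM Sham. For both genes the 3 sham populations did not overlap. In RAS they were spread more widely: *Alox15* was at 811, 599, 76.4 and 321 CPM in CD11cloMϕ, and *Prg4* at 76.4, 135, 10.5 and 48.2 CPM, with library 3 the lowest for each. That library, also the lowest of its group for *Saa3*, *Fn1*, *Icam2* and *Selp*, stood apart: genes of small peritoneal macrophages, mostly MHC class II, summed to 85052 CPM there (15652 to 36643 in the other 3), *Mrc1*, the mannose receptor gene, was at 1238 CPM (152 to 386) and *Adgre1* at 1846 (708 to 875). Without it, *Icam2* was called lower in KRM than in CD11cloMϕ of RAS kidneys beside the 5 members called with it, and *Fn1* (adjusted p = 0.0168) in place of *Fcna* was called higher in CD11cloMϕ than in CD11chiMϕ. In CD11chiMϕ of RAS kidneys, *Alox15* was at 71.6 CPM in library 1 but at 0, 0.355 and 0.121 CPM in libraries 2 to 4, and *Prg4* was at 10.9, 2.06, 0 and 0 CPM. *Adgre1*, which encodes the F4/80 of the sort, was also lowest in those 3 libraries of CD11chiMϕ, and *Fcgr1*, which encodes CD64, was at 45.5, 20.4 and 12.4 CPM there (117 in library 1 and 41.1 to 112 in Sham). The part of this in the *Alox15* and *Prg4* levels was not tested. KRM of RAS kidneys held 4.52, 0.174 and 0.367 CPM of *Alox15* and 0.589, 0.435 and 0.367 CPM of *Prg4*.

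**Figure D1:**
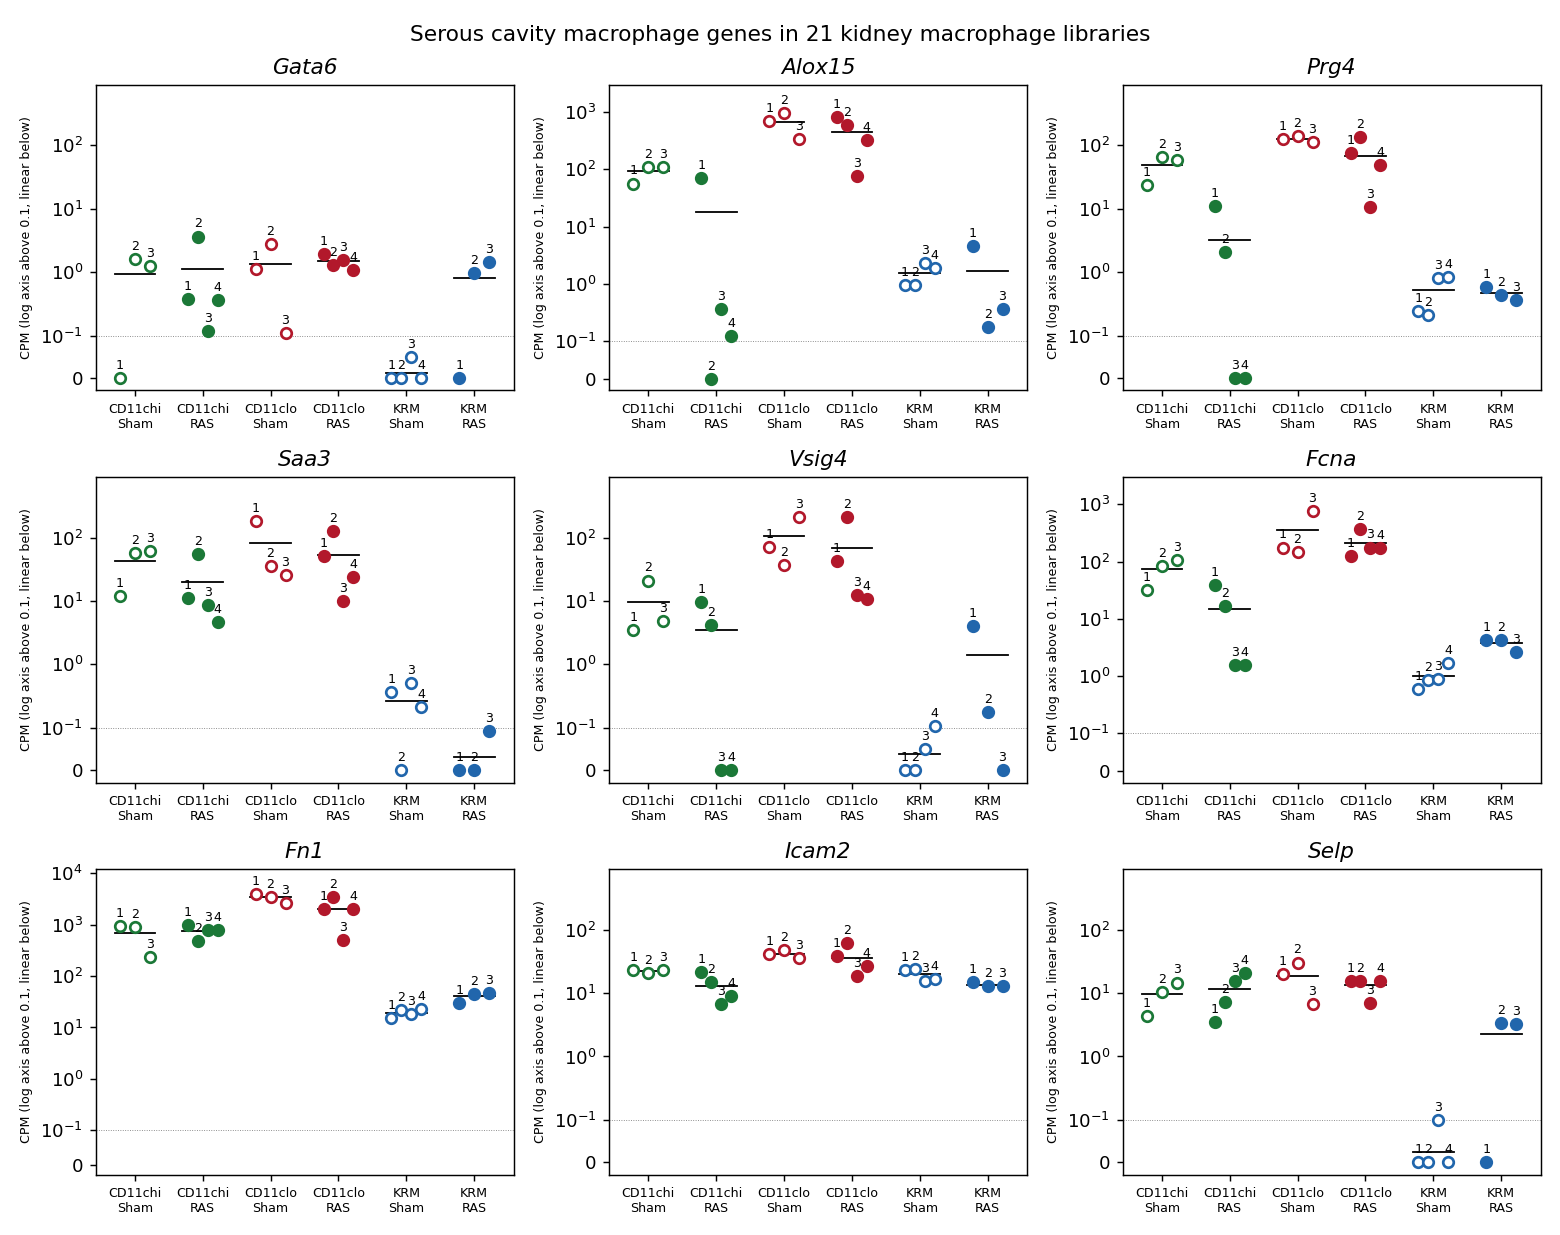
Levels of the 9 members in CPM (log axis above 0.1, linear below) in each of the 21 libraries, by population and surgery. Open points are Sham and filled points RAS, numbers are the replicate numbers, and bars are group means; *Gata6* lies at or below 3.65 CPM in every library, and KRM lie below the CD11cloMϕ libraries of the same surgery for *Alox15*, *Prg4*, *Saa3*, *Vsig4*, *Fcna*, *Fn1*, *Icam2* and *Selp*.

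*Vsig4* and *Fcna*, the complement-linked members, were again highest in CD11cloMϕ. *Vsig4* was at 70.0, 37.1 and 212 CPM in CD11cloMϕ Sham, at 3.50, 21 and 4.77 CPM in CD11chiMϕ Sham, and at 0, 0, 0.0499 and 0.105 CPM in KRM Sham. *Fcna* was at 176, 148 and 757 CPM, at 32.2, 85.0 and 108 CPM, and at 0.601, 0.846, 0.897 and 1.67 CPM in the same groups. CD11cloMϕ Sham library 3, which held the highest tubule sum of its group, was the highest for both, and the populations did not overlap. That library also held the highest level of *Marco*, a scavenger receptor of splenic marginal zone and peritoneal macrophages, in Sham (110 CPM; 33.5 and 5.33 in the other CD11cloMϕ Sham libraries).

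In RAS kidneys, *Vsig4* was at 43.3, 209, 12.4 and 10.8 CPM in CD11cloMϕ and at 9.66, 4.12, 0 and 0 CPM in CD11chiMϕ. *Fcna* was at 126, 374, 176 and 171 CPM in CD11cloMϕ and at 39.3, 16.5, 1.54 and 1.58 CPM in CD11chiMϕ. CD11chiMϕ libraries 3 and 4 were the lowest for both genes, as for *Prg4*. KRM of RAS kidneys held 4.03, 0.174 and 0 CPM of *Vsig4* and 4.32, 4.26 and 2.66 CPM of *Fcna*. Nearly all *Vsig4* counts of KRM, 41 of them, were in RAS library 1. *Clec4f*, a marker of liver macrophages, was at 11.6 CPM in that library (118 counts) and had no count in the other 20, and *Cd5l*, another gene of liver and cavity macrophages, was at 6.97 CPM there. The summed list of splenic and hepatic macrophage genes was, however, lowest in that library among KRM (295 CPM, with 402 and 445 in the other RAS libraries and 357 to 476 in Sham). The part of such cells in the *Vsig4* level was not tested.

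*Saa3* and *Fn1* overlapped between Sham and RAS in both CD11chiMϕ and CD11cloMϕ, and were far lower in KRM. *Saa3* was at 12.1, 56.4 and 60.5 CPM in CD11chiMϕ Sham and 11.2, 55.0, 8.75 and 4.73 CPM in RAS, and at 185, 35.1 and 25.8 CPM in CD11cloMϕ Sham and 51.7, 129, 9.83 and 23.8 CPM in RAS. These 4 groups overlapped. KRM held 3, 0, 10 and 2 counts of *Saa3* in Sham, up to 0.499 CPM, and a single count over the 3 RAS libraries.

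*Fn1* was at 4037, 3478 and 2681 CPM in CD11cloMϕ Sham and 2038, 3389, 504 and 1989 CPM in RAS. In CD11chiMϕ it was at 941, 911 and 231 CPM in Sham and 967, 491, 783 and 802 CPM in RAS. In KRM it was at 15, 21.5, 17.9 and 22.8 CPM in Sham and 30.1, 44.4 and 46.1 CPM in RAS. The lowest CD11chiMϕ Sham value was in library 3, the library with the most tubule RNA.

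The adhesion molecules behaved differently from each other. *Icam2*, the surface marker of large peritoneal macrophages, was at levels of the same order in all 3 populations: 23.0, 20.9 and 23.4 CPM in CD11chiMϕ Sham, 41.5, 47.2 and 35.7 CPM in CD11cloMϕ Sham, and 23.2, 23.7, 15.7 and 16.6 CPM in KRM Sham. In RAS it was at 21.8, 14.9, 6.62 and 8.98 CPM, at 38.3, 61.2, 18.4 and 26.9 CPM, and at 14.8, 13 and 12.8 CPM in the same order. CD11chiMϕ and KRM overlapped in both surgeries, and CD11cloMϕ Sham lay above both others.

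*Selp* was at 4.30, 10.5 and 14.7 CPM in CD11chiMϕ Sham and 3.56, 7.14, 15.4 and 20.6 CPM in RAS, and at 19.7, 30.4 and 6.74 CPM in CD11cloMϕ Sham and 15.7, 15.7, 7.01 and 15.6 CPM in RAS. These groups overlapped, and CD11chiMϕ RAS libraries 3 and 4, lowest for *Vsig4*, *Fcna* and *Prg4*, were the highest of their group for *Selp*. KRM held 2 counts of *Selp* over the 4 Sham libraries, and 0, 3.39 and 3.30 CPM in the RAS libraries. Endothelial markers summed to 14.7, 211 and 181 CPM in KRM RAS libraries 1 to 3, so the KRM libraries with *Selp* were again libraries 2 and 3, and its endothelial part was not tested. The 8 platelet markers summed to 8.39 to 314 CPM over the 21 libraries, and among them *Gp1ba*, which defines platelets, lay between 0 and 2.38 CPM.

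**Figure D2:**
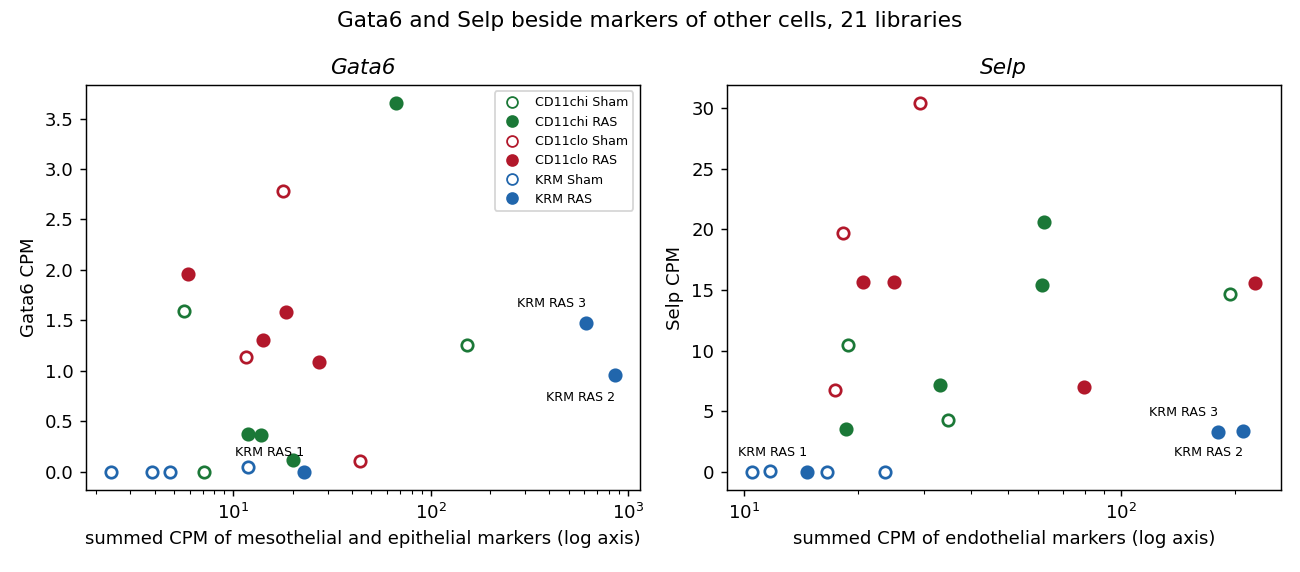
*Gata6* (left) and *Selp* (right) in CPM against the summed CPM of mesothelial and epithelial or endothelial markers (log axis) in each of the 21 libraries. Open points are Sham and filled points RAS; among KRM only RAS libraries 2 and 3, at 856 and 616 CPM of the first list and 211 and 181 CPM of the second, hold more than 1 or 2 counts of either gene.

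Levels of different genes can be compared only per length, for which the deposited log2 table of quantile-normalised TPM was used for the members other than *Gata6*. KRM RAS library 1 was left out there, because its column ranked genes unlike its own counts (Spearman's rho 0.688 over genes; 0.908 to 0.948 in the other 20 libraries). In CD11cloMϕ Sham the mean levels on this log2 scale ran from 9.60 ± 0.29 (SD, n = 3) for *Fn1* through 8.65 ± 0.77 for *Alox15*, 8.27 ± 1.41 for *Fcna*, 7.38 ± 1.48 for *Saa3*, 6.50 ± 1.29 for *Vsig4*, 6.38 ± 0.04 for *Prg4* and 5.75 ± 0.12 for *Icam2* to 3.21 ± 0.95 for *Selp*. Neighbours in this order from *Fn1* to *Prg4* overlapped between libraries, while *Prg4*, *Icam2* and *Selp* did not overlap. In KRM Sham *Icam2* was the highest instead, at 4.85 ± 0.39 (SD, n = 4), above *Fn1* at 2.39 ± 0.29, *Fcna* at 1.18 ± 0.29 and *Alox15* at 1.03 ± 0.22. *Icam2*, *Fn1* and *Fcna* did not overlap there, and *Fcna* and *Alox15* did.

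In sham kidneys, the populations are described without a test, because their differences were known when the members were chosen. Of the 9 members, 7 were lower in KRM than in CD11chiMϕ with no overlap, and *Icam2* and *Gata6* overlapped; of 12380 genes past the count filter, 11.0% were lower in that way and 13.5% higher. Against CD11cloMϕ, the 8 members other than *Gata6* were lower without overlap, where 23.9% of 12365 genes were lower and 24.9% higher. A member near 0 in KRM passed the filter only through the other population, so nothing is read from these counts. The log2 differences between KRM and CD11cloMϕ were -8.70 for *Alox15*, -7.79 for *Prg4*, -8.47 for *Fcna* and -7.49 for *Fn1*, but -1.09 for *Icam2*. *Gata6* rested on a single count in the highest KRM library and in the lowest CD11cloMϕ library, so its groups cannot be separated. For *Vsig4*, with 2 counts in KRM, the ratio of CD11cloMϕ to KRM was 2525 (95% exact Poisson interval of the KRM count, 699 to 20853). *Alox15*, *Prg4*, *Vsig4*, *Fcna*, *Fn1* and *Icam2*, 6 of 9 members, were higher in CD11cloMϕ than in CD11chiMϕ without overlap, where 14.3% of 12105 genes were higher and 12.5% lower. *Gata6*, with 1 count in KRM Sham, did not pass the filter in either KRM comparison.

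The same population differences in stenotic kidneys were fitted with edgeR's quasi-likelihood test, Benjamini-Hochberg adjusted p-values over all genes tested, and a call at an adjusted p under 0.05 with a change of more than 2-fold. The members were chosen with these libraries in view, so the p-values describe these libraries and are not independent evidence. KRM against CD11cloMϕ gave 5 members called lower of 9 tested, none higher; over all genes, 4.70% of 13179 were called lower and 3.07% higher. *Fn1* fell from 1980 ± 1179 CPM (SD, n = 4) in CD11cloMϕ to 40.2 ± 8.81 (n = 3) in KRM, a log2 difference of -5.59 ± 0.72 (SE, adjusted p = 0.0141 by edgeR). *Fcna* differed by -5.78 ± 0.51 (adjusted p = 0.00831), *Alox15* by -8.06 ± 1.42 (adjusted p = 0.0268) and *Prg4* by -7.12 ± 1.01 (adjusted p = 0.0159). *Saa3* was called as well (adjusted p = 0.0169), with a ratio of CD11cloMϕ to KRM of 1729 (95% Poisson interval of the single KRM count, 310 to 68279). *Saa3*, *Prg4* and *Alox15*, near 0 in most KRM libraries, passed the filter through CD11cloMϕ, so nothing is read from the count of members called. With at least 10 counts asked of every library, *Fcna*, *Fn1* and *Icam2* were tested, and *Fcna* (-5.70, adjusted p = 0.00215) and *Fn1* (-5.49, 0.00550) were called.

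Markers of other cells moved with these differences. Called lower in KRM were 6 of 6 tested neutrophil markers (median log2 difference -8.82), 8 of 8 monocyte markers (-5.10) and 3 of 5 eosinophil markers (-3.47). Called higher were 2 of 10 tubule markers (4.14), 2 of 7 tested mesothelial and epithelial markers (3.98) and 2 of 8 T and NK cell markers (2.60). The 7 eosinophil markers summed to 132 to 691 CPM in CD11cloMϕ RAS and 17.0 to 26.1 CPM in KRM RAS. *Alox15* is expressed by eosinophils too. *Siglecf*, a lectin of eosinophils, was at 53.5 to 144 CPM in CD11cloMϕ RAS and 1.10 to 3.44 in KRM RAS, and *Ccr3*, the eotaxin receptor, at 19.6 to 352 and 0.183 to 3.04, while *Epx*, the eosinophil peroxidase gene, was at 0 in 2 of the 4 CD11cloMϕ RAS libraries and at most 0.477 CPM in the others. The part of such cells in the differences of the members was not tested.

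The other members did not pass in this comparison. *Vsig4* differed by -5.63 (adjusted p = 0.0734), *Icam2* by -1.38 (0.0689), *Selp* by -2.54 (0.142) and *Gata6* by -0.80 (0.606), all on the log2 scale. The median log2 difference, over members of which some passed the filter through CD11cloMϕ alone, was -5.63, and 0.06 over all genes, and nothing is read from it. No member was called without KRM RAS library 2 or without library 3, since the adjusted p-values then lay above 0.05. The log2 differences of the 5 called genes stayed at or below -4.21, the value nearest to 0 being that of *Fn1*, in each setting tried. *Alox15* and *Prg4* were also not called without CD11cloMϕ RAS library 2 or without library 4.

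Against CD11chiMϕ of stenotic kidneys, 2 of 7 tested members were called lower in KRM, where 4.79% of 13226 genes were called lower and 4.06% higher. *Fn1* was at 761 ± 198 CPM (SD, n = 4) in CD11chiMϕ, a log2 difference of -4.17 ± 0.35 (adjusted p = 0.00533). *Saa3* was called with an adjusted p of 0.0234 and a ratio of CD11chiMϕ to KRM of 562 (95% Poisson interval of the single KRM count, 101 to 22179), and it passed the filter through CD11chiMϕ. With at least 10 counts asked of every library, *Fn1* was called (-4.09, adjusted p = 0.00295) of the 3 members tested. *Alox15* and *Prg4*, which did not overlap between these populations in Sham, did not pass the count filter. *Fcna* differed by -1.92 (adjusted p = 0.279), *Selp* by -2.29 (0.213), *Vsig4* by -1.28 (0.685), *Gata6* by -0.38 (0.878) and *Icam2* by 0.10 (0.890). Without CD11chiMϕ RAS libraries 3 and 4 neither *Fn1* (-4.14, adjusted p = 0.0925 by edgeR) nor *Saa3* (-9.58, 0.142) was called. The call of *Saa3* was also lost without CD11chiMϕ RAS library 3, without KRM RAS library 2 or 3, and by limma. Without both KRM RAS libraries 2 and 3, which left 1 KRM library, the log2 differences were -4.62 for *Fn1* and -10.43 for *Saa3*. Other markers moved with this comparison as well: 4 of 8 dendritic cell markers were called lower in KRM (median log2 difference -3.01; sums of 1139 to 5489 CPM in CD11chiMϕ RAS and 190 to 242 in KRM RAS), 2 of 4 tested eosinophil markers were called lower (-2.05; 359 to 1101 and 17.0 to 26.1 CPM), all 8 monocyte markers were negative with 1 called (-1.49), and 4 of 10 tubule markers were called higher (4.04; 206 to 345 and 692 to 4730 CPM). Their part in the values of the members was not tested.

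CD11cloMϕ were above CD11chiMϕ for all 9 members on the log2 scale in stenotic kidneys, but 1 was called higher, where 2.59% of 12305 genes were called higher and 4.75% lower. *Fcna* differed by 3.84 ± 0.96 (adjusted p = 0.0399), from 212 ± 110 CPM (SD, n = 4) to 14.7 ± 17.8 (n = 4). *Prg4* differed by 4.33 (adjusted p = 0.0632), *Icam2* by 1.46 (0.0770), *Vsig4* by 4.28 (0.0862), *Fn1* by 1.39 (0.108) and *Alox15* by 4.64 (0.125). The median was 1.46 over the members and -0.01 over all genes. Without CD11chiMϕ RAS library 1, whose *Alox15*, *Vsig4* and *Fcna* levels lay within the Sham range, *Alox15* (log2 difference 11.24, adjusted p = 0.00146), *Prg4* (6.77, 0.0106), *Vsig4* (5.76, 0.0435) and *Icam2* (1.83, 0.0290) were called too, among 1660 of 12566 genes. *Alox15* and *Prg4*, at or near 0 in most of the CD11chiMϕ libraries then left, passed the filter through CD11cloMϕ. With a replicate block 6 members were called among 1114 of 12305 genes, and by DESeq2 3 members among 1594 genes, beside 903 genes as reported. The call of *Fcna* was lost when any library other than CD11chiMϕ RAS library 1 was left out, with adjusted p-values of up to 0.0970. Markers of other cells moved with this comparison: 7 of 8 dendritic cell markers (median log2 difference -3.45) and 5 of 7 tested T and NK cell markers (-2.50) were called lower in CD11cloMϕ, and 4 of 8 monocyte (3.51) and 5 of 7 neutrophil markers (4.52) higher. Their part in the values of the members was not tested.

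**Figure D3:**
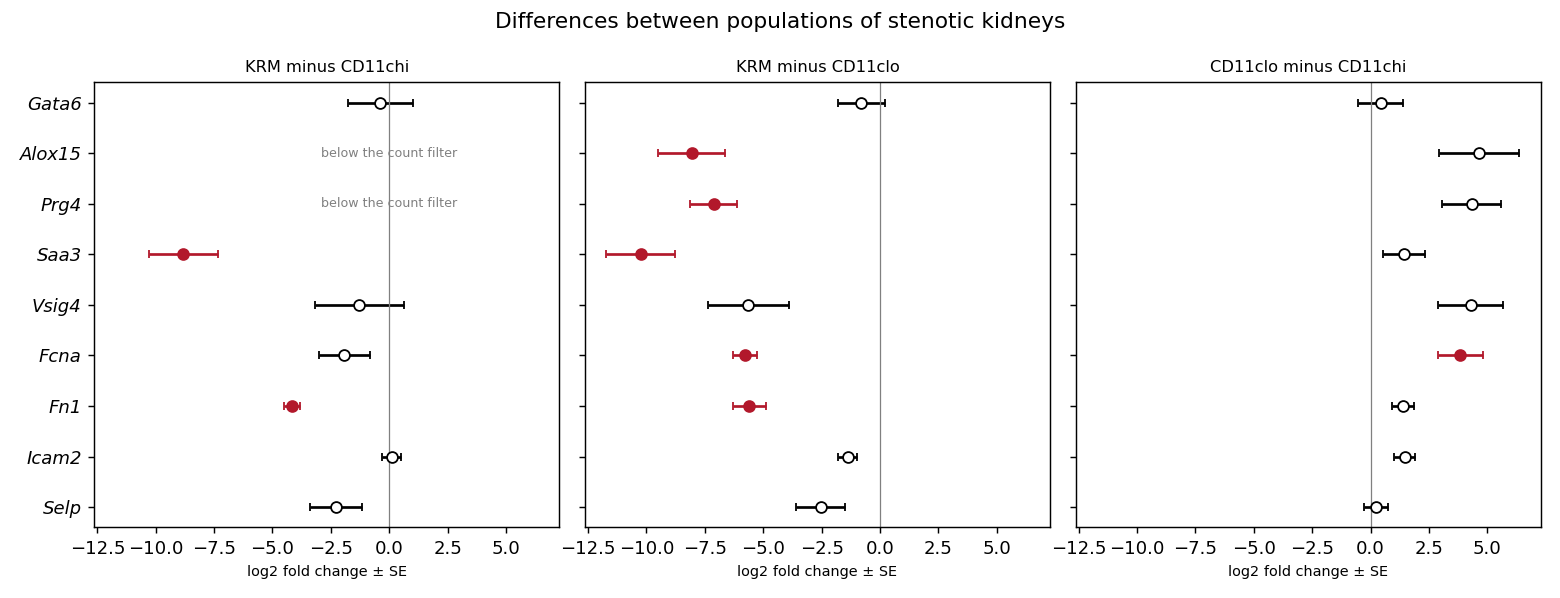
Log2 fold change (horizontal axis, with SE) of each member between populations of stenotic kidneys, for KRM minus CD11chiMϕ, KRM minus CD11cloMϕ and CD11cloMϕ minus CD11chiMϕ. Filled red points are called (2, 5 and 1 members) and open points are not; *Icam2* and *Gata6* lie nearest to 0 for KRM minus CD11chiMϕ, and the *Saa3* points against KRM rest on a single KRM count.

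The question of what stenosis does to these genes was asked within each population. In CD11chiMϕ, 0 of 9 members were called, as were 0 of 12739 genes (0%) in either direction; 1247 of them had an unadjusted p under 0.05, and DESeq2 called 194. *Prg4* was at 49.7 ± 22.5 CPM (SD, n = 3) in Sham and 3.23 ± 5.19 (n = 4) in RAS, without overlap, a log2 difference of -3.96 ± 1.43 (unadjusted p = 0.0240 and adjusted p = 0.508 by edgeR). *Fcna* (-2.42, adjusted p = 0.509) and *Alox15* (-2.39, 0.640) were lower on average, while *Fn1* (0.07, 0.971), *Selp* (0.13, 0.958) and *Gata6* (0.13, 0.981) lay near 0. Library 1 decided the *Alox15* value: without it the gene differed by -9.07 (adjusted p = 0.0200 by edgeR) and was called. In that setting 39 of 12411 genes were called. The RAS libraries then left held 0, 3 and 1 counts of *Alox15*. It passed the filter through Sham, so nothing is read from this call.

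In CD11cloMϕ, 0 of 9 members and 0 of 12301 genes (0%) were called in either direction, with 1102 at an unadjusted p under 0.05 and 92 called by DESeq2. The log2 differences of the members ran from -0.93 for *Prg4* to 0.16 for *Gata6*, and 8 of 9 were negative. DESeq2 called no member in either of these populations. The median over the members was -0.61 in CD11cloMϕ (-0.02 over all genes) and -1.20 in CD11chiMϕ (-0.09 over all genes).

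In KRM, *Alox15*, *Fcna*, *Fn1* and *Icam2* passed the count filter and the other 5 members did not. Of these 4, 2 were called higher in RAS and none lower, where 6.74% of 12852 genes were called higher and 1.06% lower. *Fcna* rose from 1.00 ± 0.464 CPM (SD, n = 4) to 3.75 ± 0.943 (n = 3), a log2 difference of 1.97 ± 0.43 (adjusted p = 0.0360), and *Fn1* from 19.3 ± 3.52 to 40.2 ± 8.81 CPM, a difference of 1.15 ± 0.22 (adjusted p = 0.0286). The KRM groups of both genes did not overlap, and the RAS levels were under those of either other population in Sham, while in RAS the *Fcna* levels of KRM lay above the 1.54 and 1.58 CPM of CD11chiMϕ libraries 3 and 4. Markers of other cells were called higher in KRM RAS too, among them 7 of 8 of T and NK cells (median log2 difference 5.47), 5 of 6 tested of mesothelium and epithelium (7.19) and 2 of 9 tested of tubule (4.49), and their part in these values was not tested. *Icam2* differed by -0.46 ± 0.20 (adjusted p = 0.146) and *Alox15* by 0.15 ± 0.98 (0.924). Both calls were lost with a replicate block (adjusted p = 0.122 for *Fcna* and 0.0895 for *Fn1* by edgeR). Without both KRM RAS libraries 2 and 3, which left 1 RAS library, the log2 differences were 2.14 and 0.68. The call of *Fcna* was lost in 12 of the 16 other settings that gave it a value and that of *Fn1* in 10 of 17, among them limma, 1 fit over all groups, and leaving out KRM RAS library 2 or 3 or Sham library 1, 2 or 4. The log2 differences lay between 1.83 and 2.55 for *Fcna* and between 0.68 and 2.08 for *Fn1* in those settings.

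Without KRM RAS library 1, 4312 of 14088 genes were called in either direction (1002 of 12852 with it), among them *Alox15*, lower (-2.43, adjusted p = 0.0221), and *Gata6*, *Selp*, *Fcna* and *Fn1*, higher. The 2 libraries left are those with the high tubule, keratin and endothelial sums. KRM Sham held 1 count of *Gata6* and 2 of *Selp* over 4 libraries, against 11 and 16 of *Gata6* and 39 and 36 of *Selp* in RAS libraries 2 and 3, so both genes passed the filter through those libraries and no fold is given. *Selp* was also called higher with library 1 kept, in 1 edgeR fit over all groups (adjusted p = 0.0112) and by DESeq2 (0.0239). Limma called it with either pseudocount. Its log2 column labelled library 1 did not match the counts of that library, so those fits do not show a call with library 1 kept. With library 1 as the lone RAS library, *Vsig4* was higher, on 41 counts there against 2 over the 4 Sham libraries. It passed the filter through library 1, so no fold is given. The spread of that fit was taken from the Sham libraries.

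**Figure D4:**
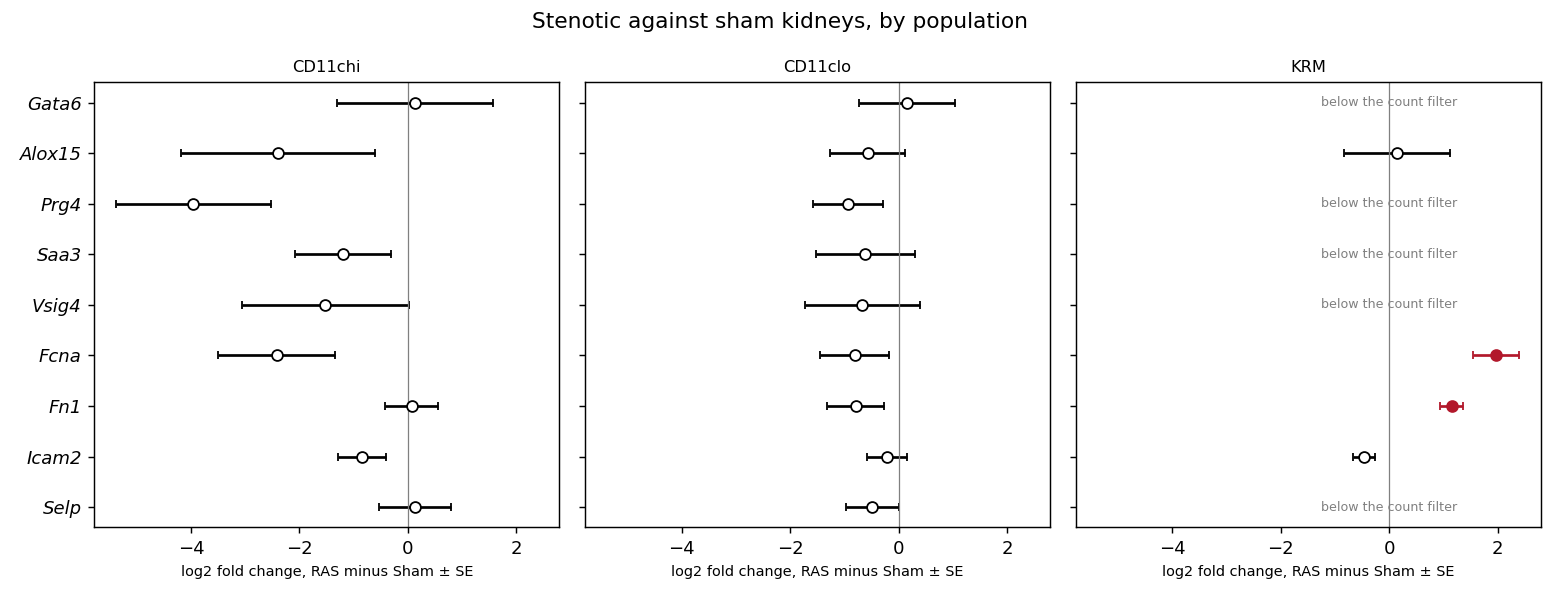
Log2 fold change of each member, RAS minus Sham (horizontal axis, with SE), in CD11chiMϕ, CD11cloMϕ and KRM. Filled red points are called; *Fcna* and *Fn1* in KRM are above 0, and 5 members in KRM were below the count filter.

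The response to stenosis was compared between populations by an interaction term. No member was called for KRM minus CD11chiMϕ (0% of 14137 genes), KRM minus CD11cloMϕ (0.245% of 13877 genes) or CD11chiMϕ minus CD11cloMϕ (0% of 13540 genes). At an unadjusted p under 0.05 there were 3000, 3289 and 900 genes, and DESeq2 called 1210, 1200 and 11. Between KRM and CD11chiMϕ the lowest adjusted p-values by edgeR were 0.105 for *Fcna* (log2 difference of the responses 4.34 ± 1.29) and 0.105 for *Selp*. Between KRM and CD11cloMϕ they were 0.0757 for *Selp* and 0.0968 for *Fcna* (2.68 ± 0.80). By DESeq2, 2 and 3 members were called in these comparisons, *Fcna* and *Selp* in both and *Fn1* in the second. *Selp* held 2 counts over the 4 KRM Sham libraries and passed these filters through the other groups. No fold is given for it, and nothing is read from its calls.

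Another 30 genes known from large peritoneal macrophages were listed beside the members. Their summed level was 6563 to 7781 CPM in CD11cloMϕ Sham, 1603 to 3382 CPM in CD11chiMϕ Sham and 908 to 1301 CPM in KRM Sham. In stenotic kidneys 11 of 28 tested were called lower in KRM than in CD11cloMϕ and none higher (4.70% and 3.07% of all genes), led by *F5* (log2 difference -8.47 ± 1.17), the coagulation factor V gene, *Padi4* (-7.79 ± 0.91), a histone-citrullinating enzyme, *Serpinb2* (-7.07 ± 1.12), a plasminogen activator inhibitor, *Hdc* (-6.58 ± 1.33), which makes histamine, and *Slpi* (-5.97 ± 0.66), a protease inhibitor. *F5*, *Padi4* and *Serpinb2* were at most at 1.28, 1.08 and 1.08 CPM in KRM RAS and passed the filter through CD11cloMϕ, where they were at 28.1 to 401, 33.6 to 236 and 19.0 to 89.4 CPM, so nothing is read from this count. Against CD11chiMϕ, *F10*, *Lyz1* and *Timd4* were called lower in KRM, 3 of 27 tested (4.79% of all genes). *F10* (7 to 24 counts a library in KRM RAS) and *Timd4* (8 to 15) passed the filter through CD11chiMϕ, so nothing is read from the number called. *Timd4*, a receptor for phosphatidylserine on long-lived macrophages, was at 7.96 ± 3.65 CPM in CD11chiMϕ and 0.974 ± 0.296 in KRM. Without KRM RAS library 2, or without library 3, none of the 30 was called in either comparison.

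CD11cloMϕ were called higher than CD11chiMϕ of stenotic kidneys for 8 of 28 of these genes (2.59% of all genes), among them *Hdc* (5.35), *Thbs1* (5.08), which encodes thrombospondin, *Serpinb2* (4.13), *Slpi* (3.91) and *Ednrb* (3.60), an endothelin receptor; *Lyz1* was called lower. Between 3 and 14 of the list were called when 1 library was left out, 3 of them without CD11chiMϕ RAS library 3 or library 4, and none without both. Beside the dendritic and T and NK cell markers given above, the same cells differed in monocyte and neutrophil markers: the summed monocyte markers were at 3039 to 7319 CPM in CD11cloMϕ RAS and 789 to 1957 CPM in CD11chiMϕ RAS, and neutrophil markers at 2091 to 3703 and 12.4 to 347 CPM. *Hdc*, *Slpi*, *Padi4* and *Thbs1* are also expressed by such cells, and their part in the difference was not tested.

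In KRM, 9 of 21 tested genes of this list were called higher in RAS and 1 lower, where 6.74% and 1.06% of all genes were. Some of them, such as *Cxcl13* (1 to 9 counts a library in Sham) and *Lbp* (0 to 8), passed the filter through the RAS libraries, so nothing is read from this count. They included *Bhlhe40* (5.72 ± 0.81), a regulator of macrophage proliferation, *Cxcl13* (5.66 ± 0.84), a B cell chemokine of the cavity, *Lbp* (4.64 ± 0.98), *Nt5e* (3.62 ± 0.80) and *Lyz1* (3.48 ± 0.64), while *Icosl* fell by 1.19 on the log2 scale. *Cxcl13* was at 2.75, 22.7 and 25.1 CPM in the RAS libraries and at most 0.481 CPM in Sham, again highest in libraries 2 and 3. No gene of the list was called with a replicate block, or when KRM RAS library 2 or 3 or KRM Sham library 1, 2 or 4 was left out. By edgeR no gene of the list was called between RAS and Sham in CD11chiMϕ or CD11cloMϕ; DESeq2 called 3 in CD11chiMϕ, as did edgeR without RAS library 1.

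**Figure D5:**
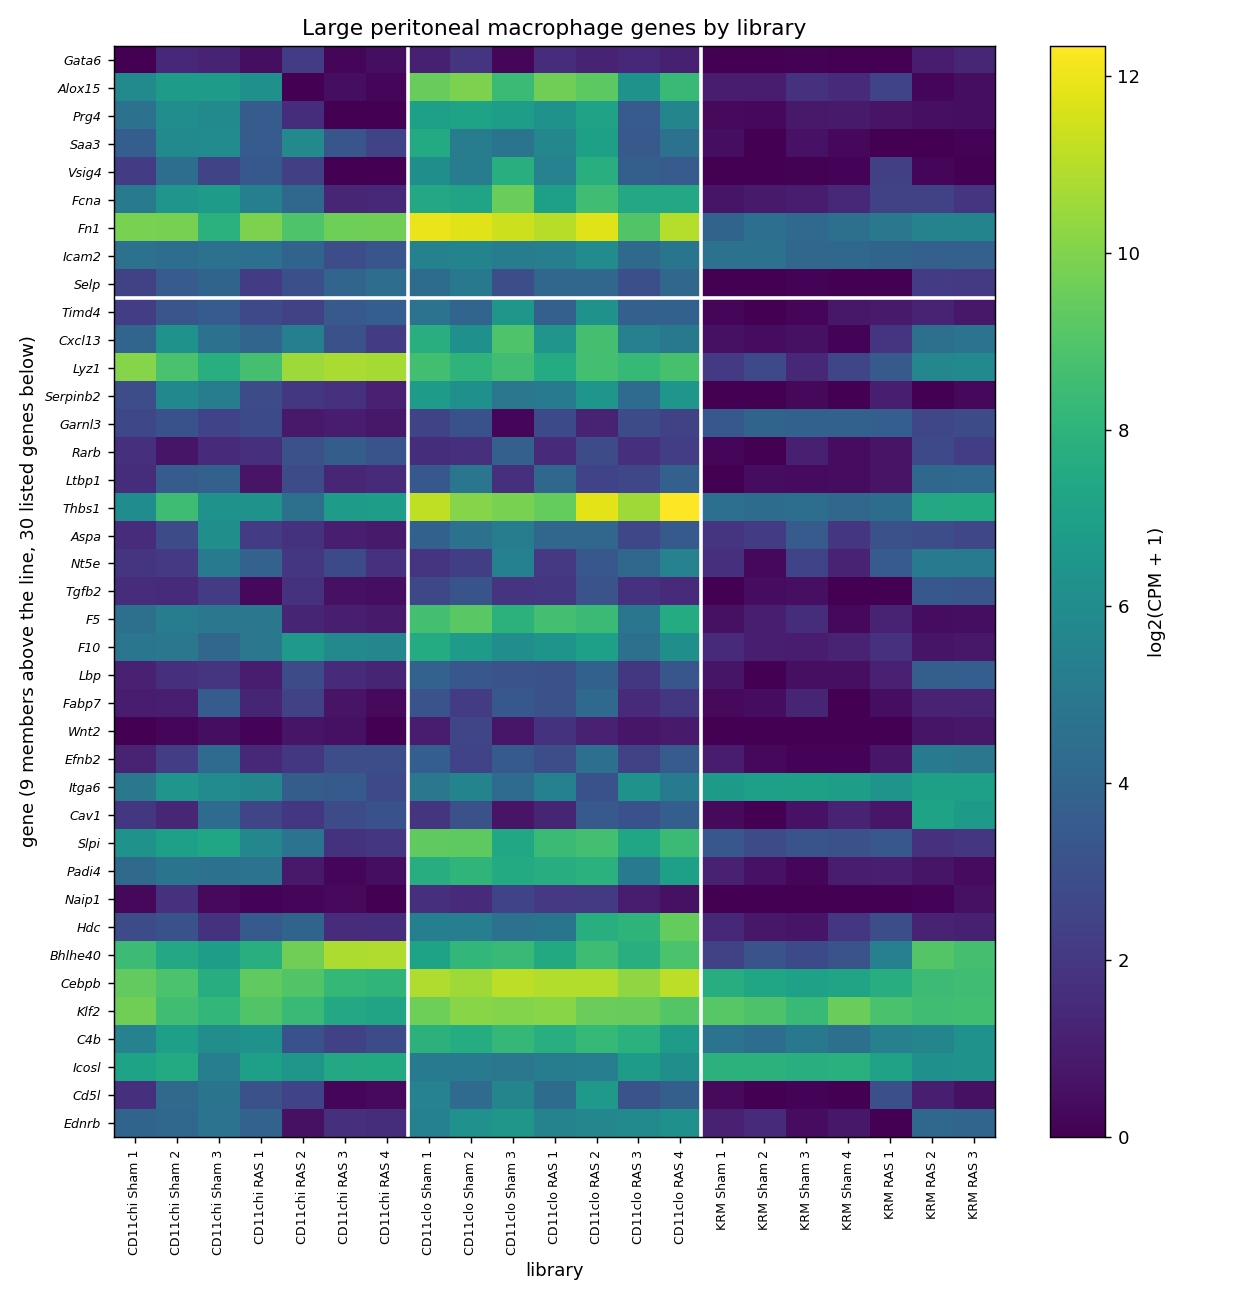
Levels of the 9 members (above the line) and of 30 other genes known from large peritoneal macrophages (below), as log2(CPM + 1), in the 21 libraries. Lighter is higher; the CD11cloMϕ columns are lightest on average for *Alox15*, *Prg4*, *Fn1*, *F5*, *Padi4* and *Cebpb*, and CD11chiMϕ RAS libraries 2 to 4 are dark for *Alox15*, *F5* and *Padi4*.

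For the next 3 lists, the share of all genes called is the background given above: 4.70% lower and 3.07% higher for KRM against CD11cloMϕ, 4.79% and 4.06% for KRM against CD11chiMϕ, 4.75% and 2.59% for CD11cloMϕ against CD11chiMϕ, and 1.06% lower and 6.74% higher for RAS in KRM. Without KRM RAS library 2, or without library 3, the number of all genes called went from 1023 to 0 and 0 for KRM against CD11cloMϕ, from 1170 to 14 and 24 for KRM against CD11chiMϕ, and from 1002 to 28 and 32 for RAS against Sham in KRM. The last was 39 with a replicate block, 26 to 43 without Sham library 1, 2 or 4, and 4312 without RAS library 1. For KRM against CD11chiMϕ it was 46 and 50 without CD11chiMϕ RAS library 3 or 4 and 101 with a replicate block. For KRM against CD11cloMϕ it was 45 and 89 without CD11cloMϕ RAS library 2 or 4. For CD11cloMϕ against CD11chiMϕ it went from 903 to 256 and 273 without CD11chiMϕ RAS library 3 or 4, to 26 without both, and to 305 and 299 without CD11cloMϕ RAS library 2 or 4.

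The genes of the signal that turns on *Gata6* in the cavity were tested as well. Of 22 genes of retinoid synthesis, retinoid receptors, GATA factors and cofactors, 12 passed the filter in KRM, and *Gata3*, *Gata2* (4.83 ± 1.00) and *Aldh1a2* (4.07 ± 0.80), which encodes a retinoic acid-making enzyme, were called higher in RAS. *Gata3* was at 9.23, 37.5 and 34.5 CPM, *Gata2* at 6.78, 48.2 and 34.7 and *Aldh1a2* at 1.57, 18.9 and 15.4 in the 3 RAS libraries, highest in libraries 2 and 3, which held the high tubule, mesothelial and endothelial sums. In KRM Sham *Gata3* had 0 to 4 counts a library, *Gata2* 1 to 30 and *Aldh1a2* 3 to 15, so they passed the filter through the RAS libraries and nothing is read from this count. *Gata3* is also a gene of distal tubule and of T cells, and *Gata2* of endothelium and mast cells; 7 of 8 T and NK cell markers were called higher in KRM RAS and 1 lower, although they summed to 341, 56.4 and 57.3 CPM in KRM RAS and 79.0 to 108 CPM in KRM Sham, where *Cd4* (76.7 to 107 CPM in Sham and 54.5, 19.6 and 24.7 in RAS) made up most of the sum, and mast cell markers to 75.3 to 88.0 CPM and 0.481 to 7.48 CPM. Their part in these values was not tested. Against CD11chiMϕ of stenotic kidneys, 4 of 14 tested genes were called higher in KRM and 1 lower. *Gata2* (4.15 ± 0.72) and *Rdh10* (1.75 ± 0.37), which makes retinal, were among those higher. *Rara*, a retinoic acid receptor, was the one lower (-1.56 ± 0.25). *Aldh1a1* was also called higher, but held 1 to 2 counts a library in CD11chiMϕ RAS. It passed the filter through KRM, so no fold is given and nothing is read from the number called. Against CD11cloMϕ, *Gata3* (3.99 ± 0.59) and *Rdh10* (1.40 ± 0.30) were higher and *Gata1* and *Rara* (-3.06 ± 0.50) lower, 4 of 16 tested. *Gata1*, at a mean of 0.0655 CPM in KRM RAS, passed the filter through CD11cloMϕ. No fold is given for it, and nothing is read from the number called. *Rxra*, the partner of the retinoic acid receptors, was the gene of 14 tested that was called higher in CD11cloMϕ than in CD11chiMϕ (1.14 ± 0.23). By edgeR no gene of this list was called in CD11chiMϕ or CD11cloMϕ between RAS and Sham.

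The list of paralogs, ligands and receptors of the members gave 6 of 18 tested genes called lower in KRM than in CD11cloMϕ of stenotic kidneys. *Alox5*, the 5-lipoxygenase gene, differed by -4.31 ± 0.27 and its partner *Alox5ap* by -1.94 ± 0.32. *Cd44* and *Itga4*, which encode receptors for hyaluronan and fibronectin, differed by -2.84 ± 0.38 and -2.25 ± 0.55. *Alox5* (3.09 ± 0.40), *C3* (1.99 ± 0.32), the source of the VSIG4 ligand, and *Cd44* (1.20 ± 0.29) were among the 4 of 16 tested genes called higher in CD11cloMϕ than in CD11chiMϕ. In KRM, *C3* rose in RAS (3.01 ± 0.44) and *Alox5ap* fell by 1.08 on the log2 scale. Against CD11chiMϕ, *Masp1* and *Itgav* (1.58 ± 0.37) were higher in KRM and *Alox5ap*, *Itgb2* and *Cd44* were lower, 5 of 17 tested. *Masp1*, at a mean of 0.313 CPM in CD11chiMϕ RAS, passed the filter through KRM. No fold is given for it, and nothing is read from the number called.

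The 12 genes of small peritoneal macrophages had their lowest sum in CD11cloMϕ of sham kidneys. Their summed level was 33674 to 75400 CPM in CD11chiMϕ Sham and 81648 to 124169 CPM in KRM Sham, above the 10682 to 15317 CPM of CD11cloMϕ Sham, most of it the MHC class II genes *Cd74*, *H2-Ab1* and *H2-Eb1*. In stenotic kidneys *Irf4* (-2.34 ± 0.42), *Cd226* (-3.27 ± 0.56) and *Clec10a* (-2.46 ± 0.46) were lower in CD11cloMϕ than in CD11chiMϕ, and *Folr2* was higher (3.42 ± 0.92). Against CD11chiMϕ 4 of 12 were called lower in KRM, and against CD11cloMϕ 5 of 12, with none called higher. *Retnla* was lower in KRM than in either population (-6.09 ± 0.54 against CD11chiMϕ and -5.52 ± 0.76 against CD11cloMϕ), as was *Clec10a* (-3.89 ± 0.51 and -1.43 ± 0.34). In KRM, *Retnla* (2.18 ± 0.27) rose in RAS. *Cd226* was called higher too (3.76 ± 0.59), but held 1 to 10 counts a library in Sham. It passed the filter through the RAS libraries, so nothing is read from its call.

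For each member, the genes most like it were sought among 14495 others by Pearson's r of log2 CPM over the 21 libraries, as a description, since the libraries share their populations. *Alox15* and *Prg4* had the same nearest genes, *Padi4* (0.968 and 0.960), *F5* (0.963 and 0.949) and *Slpi* (0.947 and 0.966), all on the list of cavity macrophage genes. *Vsig4* and *Fcna* shared *Cd5l* (0.959 and 0.941) and *Lyve1* (0.937 and 0.956), with *Rasgrp2* (0.935) the third for *Vsig4* and *Folr2* (0.968), a folate receptor of tissue macrophages, the first for *Fcna*. *Saa3* was nearest to *F10* (0.929), *Ccl24* (0.917) and *Serpinb2* (0.913), and *Fn1* to *Ms4a8a* (0.989), *Gda* (0.980) and *Arhgap26* (0.976). *Gata6* had lower values, 0.865 with *Ltbp1*, 0.824 with *5930434B04Rik* and 0.811 with *Nnmt*. *Icam2* was nearest to *Tom1* (0.931), *Snx27* (0.910) and *Ltbr* (0.908), and *Selp* to *Cript* (0.941), *Fgfr1* (0.939) and *Gcnt2* (0.934).

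Among the members, *Alox15* and *Prg4* varied together over all libraries (r = 0.95) and within the 7 CD11chiMϕ (0.90) and 7 CD11cloMϕ libraries (0.90). *Vsig4* and *Fcna* did likewise (0.95, 0.94 and 0.74). *Alox15* and *Fcna* had an r of 0.84 in CD11chiMϕ and -0.13 in CD11cloMϕ. *Alox15* and *Fn1* had an r of -0.04 in CD11chiMϕ and 0.89 in CD11cloMϕ, and *Alox15* and *Selp* -0.42 and 0.80. These coefficients describe 7 libraries each, RAS and Sham together, and libraries that stand apart weigh heavily in them.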

How the data were processed

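Flow-sorted CD11chiMϕ, CD11cloMϕ and KRM of Sham and RAS kidneys were profiled by RNA-seq from a low-input cDNA kit. Per the study's methods, the OSA aligner placed the reads on mm10 and Ensembl gave the genes. The authors deposited estimated counts per gene, of which 9.7 to 14.2% a library were not whole, and a second deposited table of log2 TPM, quantile normalised. Here the 37620 gene lines were summed by name to 34236 and rounded; the totals of 6891142 to 18592381 set the counting precision, and intervals and floors (3 counts) cover counting error only. Genes were kept by edgeR's filterByExpr (minimum count 10, minimum total 15), normalised by TMM, and tested per pair of groups by the quasi-likelihood test (edgeR 4.0.16, R 4.3.3), 4 groups for interactions, with Benjamini-Hochberg adjustment, called at an adjusted p under 0.05 and over 2-fold. Log2 CPM for likeness used a prior count of 2. The code was tested on simulated data.

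Members and gene lists were chosen with earlier results of these data known. The text names all 9 members, up to 5 called genes a direction of each list whose groups did not overlap, the 3 genes most like each member, and markers of other cells, except 1 listed gene not reported here; *Clec4f*, *Marco*, *Cd5l*, *Gp1ba* and the keratins were singled out of their lists after their values were seen. Of 193 listed genes, 4 were found under older symbols. Alternatives were other size factors and filters, 1 fit over all 6 groups, a fit with replicate number as block, limma 3.58.1 run on the log2 values (pseudocount 1 or 0.1), DESeq2 1.42.0, and leaving out each library; leaving out library pairs was added after the data were seen.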

Additional observations from a re-analysis of the deposited data

Results flagged for a closer look

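Dixon's criterion has a nominal rate of about 1 in 20 for normally distributed values. CPM with zeros are not such values, so no excess over that rate is read. In groups of 4 libraries, 27 member and group combinations were checked by it for a library apart from the others, and 7 met it. In CD11chiMϕ of RAS kidneys these were library 1 for *Alox15* (71.6 CPM) and library 2 for *Gata6* (3.65 CPM) and *Saa3* (55.0 CPM). In CD11cloMϕ of RAS kidneys they were library 2 for *Vsig4*, high at 209 CPM, and library 3 for *Selp*, low at 7.01 CPM. In KRM Sham, library 3, sequenced to the most counts, was apart for *Gata6* (0.0499 CPM) and *Selp* (0.0997 CPM), on 1 and 2 counts. The other libraries of that group held 0, so any count in library 3 would have met the criterion. CD11chiMϕ RAS library 2 also held 66.9 CPM of mesothelial and epithelial markers, the most in its group; their part in its *Gata6* level was not tested.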

How the results depend on the processing

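Over 1200 repeats of single-member tests, 1056 (88.0%) kept direction and side of the threshold. In the others, 61 lost a call, 43 gained one and 40 changed sign. Most repeats were of members not called as reported, so this share does not tell how stable the calls were. The call of *Saa3* for KRM against CD11chiMϕ was lost in 7 of 17 settings. That of *Fcna* for CD11cloMϕ against CD11chiMϕ was lost in 9 of 18. The number of members called is given next for each comparison. For RAS against Sham in KRM (2 called) it was 1 with no filter and with 10 counts in every library (*Fn1*), 1 in 1 fit over all groups and by limma with either pseudocount (*Selp*), 1 without the KRM RAS pair (*Vsig4*), and 0 with the replicate block; leaving out each library gave 0 to 5. For KRM against CD11chiMϕ (2) it was 1 with 10 counts in every library and by limma with either pseudocount, 0 without the CD11chiMϕ or the KRM RAS pair, and 1 to 2 without each library. For KRM against CD11cloMϕ (5) it was 2 with 10 counts in every library, 8 by DESeq2, 0 without the KRM RAS pair, and 0 to 7 without each library. For CD11cloMϕ against CD11chiMϕ (1) it was 0 by total library size, 2 with no filter, 5 in 1 fit over all groups, 3 by DESeq2, 6 with the replicate block, 3 by limma with either pseudocount, 0 without the CD11chiMϕ RAS pair, and 0 to 5 without each library. Leaving out each library gave 0 to 1 for RAS against Sham in CD11chiMϕ. For the response of KRM minus CD11chiMϕ it gave 0 to 1 (2 by DESeq2), and for KRM minus CD11cloMϕ 0 to 2 (3 by DESeq2). Fewer libraries or fewer genes are part of these settings; other causes were not tested. The limma fits include KRM RAS library 1, whose log2 column did not match its counts.

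The members that changed sign were not among those called; *Alox15* in KRM passed the threshold at -2.43 without RAS library 1. On the log2 scale, RAS against Sham in CD11chiMϕ gave -0.00 for *Fn1* by total library size, and for *Selp* -0.33 with the replicate block and -0.97 without RAS libraries 3 and 4. In KRM *Alox15* gave -0.76 with the replicate block and -0.78 and -2.22 by limma (pseudocounts 1 and 0.1). For KRM against CD11chiMϕ, *Icam2* gave -0.01 by limma with either pseudocount and -0.41 without the CD11chiMϕ RAS pair, and *Vsig4* gave 0.23 without the KRM RAS pair. *Gata6* gave -0.42 for CD11cloMϕ against CD11chiMϕ without the CD11chiMϕ RAS pair.

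Leaving out each library, RAS against Sham in CD11chiMϕ spanned -0.45 to 0.70 for *Gata6*, -0.32 to 0.58 for *Selp* and -0.33 to 0.35 for *Fn1*. In CD11cloMϕ it spanned -1.49 to 0.78 for *Saa3*, -0.88 to 0.03 for *Selp*, -0.38 to 1.24 for *Gata6*, -2.27 to 0.37 for *Vsig4*, -1.22 to 0.39 for *Fcna* and -0.56 to 0.02 for *Icam2*, and in KRM -2.43 to 0.69 for *Alox15*. KRM against CD11chiMϕ spanned -0.12 to 0.51 for *Icam2* and -1.08 to 0.17 for *Gata6*, and CD11cloMϕ against CD11chiMϕ -0.09 to 0.64 for *Selp*. The response of KRM minus CD11chiMϕ spanned -0.08 to 9.17 for *Alox15*, KRM minus CD11cloMϕ -0.54 to 0.08 for *Icam2* and -1.91 to 1.23 for *Alox15*, and CD11chiMϕ minus CD11cloMϕ -1.95 to 0.66 for *Gata6*, -2.30 to 0.78 for *Vsig4* and -1.94 to 0.40 for *Saa3*. Libraries of the same number shared deviations unevenly (r from -0.196 to 0.505), and the labels do not pair them, so the paired fits are given as alternatives only. *Gata6*, with at most 24 counts a library, is limited by depth.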
